A study of Mus musculus with 12 samples.

Results

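The 9 genes described here encode complement components of the classical pathway, their receptors and an inhibitor: C1qa, C1qb and C1qc encode the chains of C1q, the recognition molecule, C4b and C3 encode the components cleaved downstream, C3ar1 and C5ar1 encode the receptors of the anaphylatoxins C3a and C5a, Itgam encodes CD11b, the alpha chain of complement receptor 3, and Serping1 encodes the C1 inhibitor. They were taken from the count table by matching gene symbols to its Ensembl identifiers, and all 9 of 9 had 1 row each among 55385 genes and passed the filter on low counts that left 15905 genes for testing. Complement is a cascade of plasma and tissue proteins that tags debris, microbes and synapses for removal, and in the brain much of it is made locally by glia. In brain tissue C1q and the receptors are known mainly from microglia, while C4b and Serping1 are also made by astrocytes, neurons and vessel-associated cells. In mouse models of amyloid deposition, C1q and C3 have been studied as tags on synapses that microglia engulf.

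The data are RNA-seq counts from the freshly dissected hippocampus of adult mice, from the hemisphere opposite the one used for proteomics. There were 4 groups of 3 libraries: WT, Kcnip3 KO (deficient in Kcnip3, which encodes the calcium sensor KChIP3), 5xFAD, and Kcnip3 KO-5xFAD, which carries the 5xFAD transgenes on the Kcnip3-deficient background. 5xFAD mice express mutant human amyloid precursor protein and presenilin transgenes in neurons under Thy1 sequences. Age and strain are not given in the labels used here, nor is it stated that replicates come from different animals, so p-values measure only the spread between libraries. The libraries held 7664407 to 11310714 counts. Levels are TMM-scaled CPM, counts scaled to a common library size, and comparisons between genes use the deposited TPM, which also divide by gene length. Called genes are those with an adjusted p under 0.05 in the quasi-likelihood test of edgeR.

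The labels of 2 libraries went against their transgene readout, and this touches each result below. Mouse Thy1 stood at 747 and 887 CPM in the first 2 WT libraries and at 749 to 868 CPM in Kcnip3 KO, against 2870.0 to 4236 CPM in 5xFAD. The library labelled WT 3 held 2277 CPM, and the library labelled Kcnip3 KO-5xFAD 2 held 926 CPM against 3381 and 2592 CPM in the other libraries of its group. Trem2, a microglial receptor for lipids and amyloid, gave the same order, with 22.3, 22.9 and 70.1 CPM in WT, with 154 to 251 CPM in 5xFAD, and with values of 163, 26.2 and 128 CPM in Kcnip3 KO-5xFAD. Each comparison is therefore given with all 12 libraries and with the 10 that remain without these 2, an alternative chosen after their levels were seen. Kcnip3 itself lay at 138 to 162 CPM in the libraries with the intact gene and at 63.4 to 125 CPM in those labelled knockout, the highest of these in Kcnip3 KO 3.

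The 3 C1q genes lie head to tail on the minus strand of chromosome 4 (GRCm38) within 18675 bases, C1qb at 136880129 to 136886187, C1qc at 136889804 to 136893065 and C1qa at 136895917 to 136898803. RefSeq promoter sequences (GRCm38.p6, 250 bases before to 50 after the start) were matched for 6 of the 9 genes: C1qb, C1qc, C3, C3ar1, C5ar1 and Itgam. The stretches upstream of C1qb, C1qc and Itgam are shown because these genes passed the test in 5xFAD. They are chr4:136886201-136886450 and chr4:136893066-136893164, both on the minus strand, and chr7:128062390-128062639 on the plus strand, each cut where the first annotated exon begins. Capitals mark GAGGAA on either strand (TTCCTC when read on the other), the core bound by PU.1, a transcription factor of macrophages and microglia.
C1qb: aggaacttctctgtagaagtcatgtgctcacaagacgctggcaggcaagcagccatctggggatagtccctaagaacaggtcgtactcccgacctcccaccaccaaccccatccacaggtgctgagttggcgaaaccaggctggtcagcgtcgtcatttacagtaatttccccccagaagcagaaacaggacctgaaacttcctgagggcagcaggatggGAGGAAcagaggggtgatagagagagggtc
C1qc: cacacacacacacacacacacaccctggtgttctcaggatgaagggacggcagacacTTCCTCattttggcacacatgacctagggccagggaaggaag
Itgam: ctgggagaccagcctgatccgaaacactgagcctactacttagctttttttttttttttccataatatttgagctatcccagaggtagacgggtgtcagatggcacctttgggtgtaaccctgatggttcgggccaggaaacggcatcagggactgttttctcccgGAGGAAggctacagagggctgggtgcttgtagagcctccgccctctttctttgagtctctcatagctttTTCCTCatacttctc

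GAGGAA occurred once in the promoter of C1qb, once in that of C1qc and 3 times in that of Itgam, where 1 match lies after the start and is not shown. It did not occur in the promoters of C3, C3ar1 or C5ar1. Of all 32851 promoters of the same length, 28.3% held it on either strand. TTNNGNAA, a form of the site bound by the C/EBP family, was found in C1qc, C3, C5ar1 and Itgam and in 40.7% of all promoters. C3 had 4 such matches within 70 bases before its start, 2 of them the same bases read on both strands. In Itgam 1 such match shared bases with the GAGGAA match after the start. The interferon-type sequence GAAANNGAA was found only in C5ar1 among the 6, and in 8.56% of all promoters. The STAT sequence TTCNNNGAA was in none of the 6 and in 8.3% of all promoters. A match describes letters in this window and not binding.

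Per unit length, the C1q genes were the most abundant of the 9 in every library. Deposited TPM ran from 207 to 1032 for C1qa, from 233 to 1003 for C1qb and from 117 to 563 for C1qc. C4b followed at 31.3 to 235 TPM and Serping1 at 13.8 to 38.1 TPM. Itgam lay at 4.57 to 14.7 TPM, C3ar1 at 1.39 to 10.3 TPM, C3 at 0.641 to 5.19 TPM and C5ar1 at 0.558 to 4.91 TPM. The group means of C1qa and C1qb TPM differed by less than their spread except in Kcnip3 KO (217 ± 12.9 and 249 ± 9.30, SD, n = 3), and those of C3 and C5ar1 did so in all 4 groups. C3 and C5ar1 had the fewest counts of the 9, with 7 to 81 and 2 to 33 per library.

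**Figure D1:**
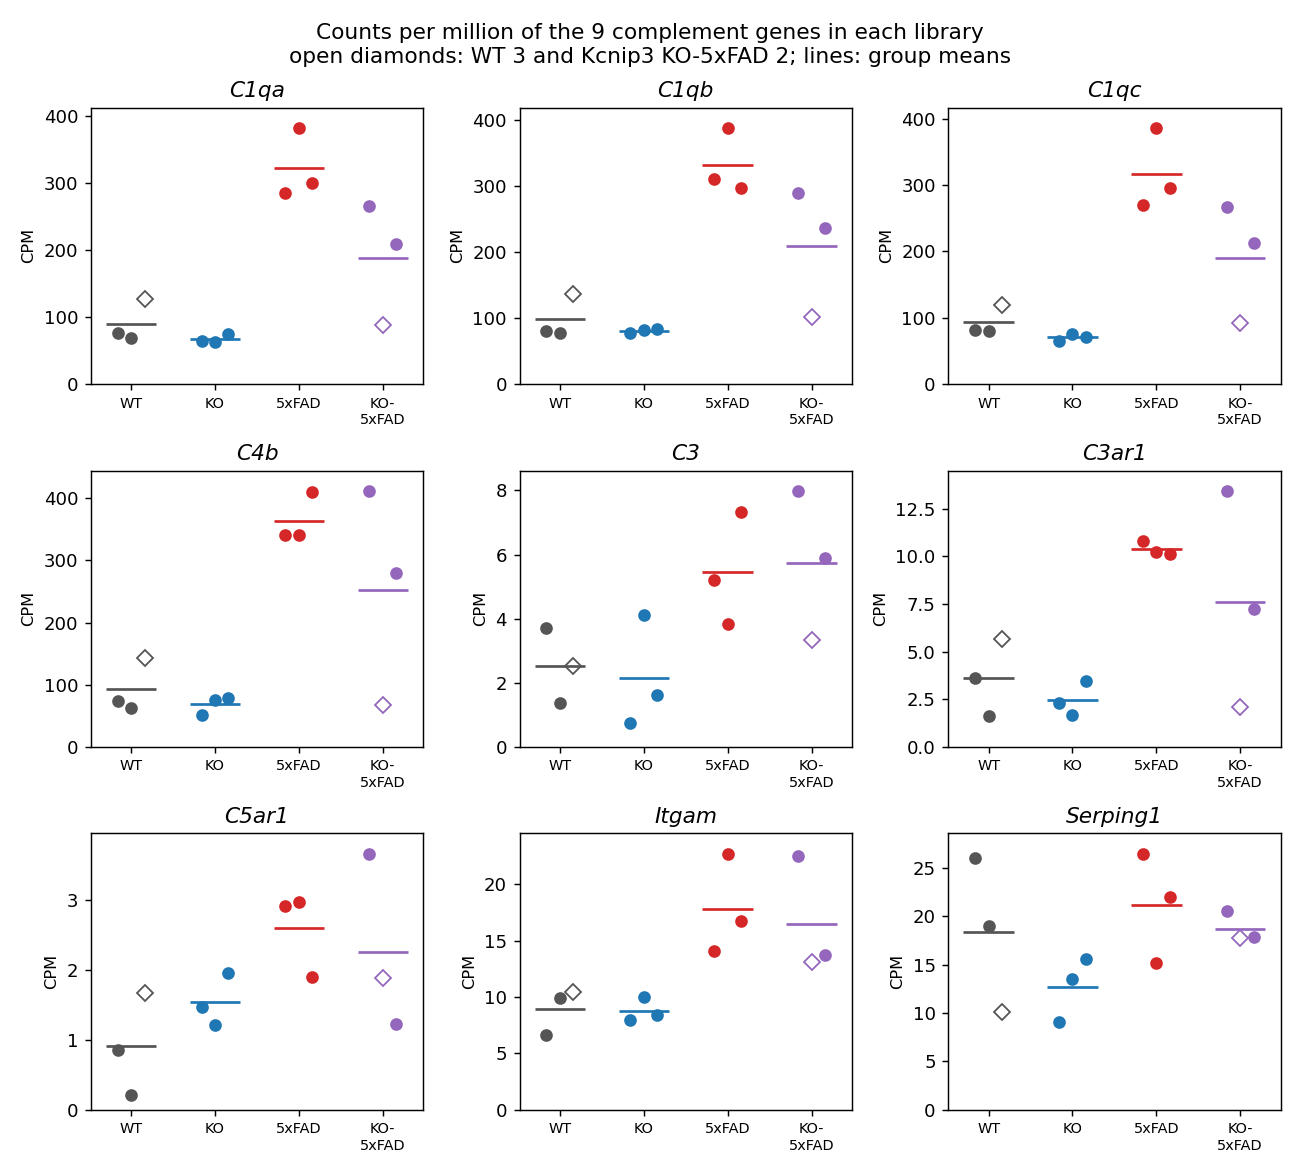
CPM of the 9 complement genes (linear y axes starting at 0, each panel on its own scale) in the 12 libraries by group, with group means as lines and open diamonds for WT 3 and Kcnip3 KO-5xFAD 2. The 3 C1q panels share 1 shape, with every 5xFAD library above every WT library and every Kcnip3 KO-5xFAD library below every 5xFAD library, while the Serping1 groups overlap.

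The first comparison asked what the 5xFAD transgenes did to these genes with Kcnip3 intact. C1qa, C1qb, C1qc and Itgam were higher in 5xFAD than in WT, 3.58-fold, 3.39-fold, 3.39-fold and 1.98-fold. With all 12 libraries, 4 of the 9 were called higher and none lower, where 1.91% of all genes tested were called higher and 1.62% lower. C4b, C3, C3ar1 and C5ar1 had a higher mean but were not called, and Serping1 overlapped between the groups. The median log2 fold change was 1.52 over the 9 genes and 0.0142 over all genes tested. For 8 of the 9, every 5xFAD library lay above every WT library, a separation seen in 13.7% of all genes tested.

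C1qa, the gene of the A chain, measured 75.3, 68.7 and 126 CPM in the WT libraries and 285, 382 and 299 CPM in 5xFAD. C1qb measured 80.6, 76.99 and 136 CPM in the WT libraries and 311, 388 and 296 CPM in 5xFAD. C1qc measured 80.6, 80.3 and 119 CPM in the WT libraries and 269, 386 and 296 CPM in 5xFAD. In each of the 3 the highest WT value came from the library labelled WT 3, and the groups did not overlap. The log2 fold changes were 1.84 ± 0.37 for C1qa, 1.76 ± 0.35 for C1qb and 1.76 ± 0.33 for C1qc (± SE), with edgeR adjusted p of 0.0358, 0.0345 and 0.0319. Itgam measured 6.59, 9.89 and 10.4 CPM in the WT libraries and 14.1, 22.7 and 16.8 CPM in 5xFAD, without overlap (log2 fold change 0.99 ± 0.24, edgeR adjusted p = 0.0451).

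These 4 calls stood near the threshold. None of the 4 remained when transcript length and GC content were corrected for (edgeR adjusted p 0.0583 to 0.0773) or when any one of WT 1, WT 2, WT 3, 5xFAD 2 or 5xFAD 3 was left out, and without Kcnip3 KO-5xFAD 3 there were 2 calls. The fold changes stayed positive in each of these fits, and those of C1qa ranged from 1.58 to 2.16 on the log2 scale over 24 alternatives.

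With 10 libraries, leaving out WT 3 and Kcnip3 KO-5xFAD 2, 5 of the 9 were called higher in 5xFAD, against 1.22% of 16076 genes tested. C1qa, C1qb and C1qc then differed by 2.16 ± 0.16, 2.07 ± 0.14 and 1.98 ± 0.16, with edgeR adjusted p of 1.95e-05, 1.31e-05 and 3.03e-05. C4b, whose product is cleaved by C1s once C1q has bound, joined them at 2.42 ± 0.22 (edgeR adjusted p = 0.000105), as did C3ar1 at 1.99 ± 0.37 (edgeR adjusted p = 0.0166). Itgam had a log2 fold change of 1.11 there and missed the threshold (edgeR adjusted p = 0.0783). The 2 libraries were left out after levels were seen, Trem2 among them, and WT 3 held the highest C1q values of its group. The p-values of this and the later fits with 10 libraries make no allowance for that choice.

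C4b measured 73.6, 62.9 and 143 CPM in the WT libraries and 342, 341 and 410 CPM in 5xFAD. The groups did not overlap, yet with 12 libraries the log2 fold change of 1.97 ± 0.57 was not called (edgeR adjusted p = 0.0835). C4b and its neighbour C4a are near-identical copies: 35.2% of the 50-base windows of the longest C4b transcript also occur in C4a, so some reads could belong to either. C4a was at 1.81 to 6.99 CPM in the 12 libraries and its log2 fold change was -0.03, which sets the 2 genes apart in level in these counts.

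C3, the component on which all activation routes converge, measured 3.72, 1.38 and 2.51 CPM in the WT libraries and 5.21, 3.83 and 7.33 CPM in 5xFAD. The lowest 5xFAD value lay just above the highest WT value, and the log2 fold change of 1.12 ± 0.51 was not called (edgeR adjusted p = 0.188). C3ar1, the receptor of its fragment C3a, measured 3.62, 1.60 and 5.64 CPM in the WT libraries and 10.8, 10.2 and 10.1 CPM in 5xFAD (log2 fold change 1.52 ± 0.54, edgeR adjusted p = 0.118). C5ar1, the receptor of C5a, measured 0.851, 0.213 and 1.67 CPM in the WT libraries and 2.92, 2.98 and 1.90 CPM in 5xFAD (1.47 ± 0.53, edgeR adjusted p = 0.109). All 3 genes were separated between the groups, C3 and C5ar1 by margins smaller than their spread and C3ar1 by a wider one, its 5xFAD libraries lying close together. Serping1, the inhibitor that dissociates activated C1r and C1s from C1q, measured 26.1, 18.9 and 10.1 CPM in the WT libraries and 26.4, 15.2 and 22.0 CPM in 5xFAD. Its log2 fold change was 0.21 ± 0.30 with 12 libraries and -0.08 ± 0.25 with 10.

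The second comparison repeated the transgene effect without Kcnip3, in Kcnip3 KO-5xFAD against Kcnip3 KO. With 12 libraries edgeR called 0 of the 9, and 0% of all genes tested. An unadjusted p under 0.05 was found for 7 of the 9, beside 1657 of all 15905 genes tested. DESeq2 called 3 of the 9 higher, beside 0.685% of all genes tested, and limma-voom called 0. All 9 mean log2 fold changes were positive, with a median of 1.44 against -0.000888 over all genes tested. C1qa, C1qb, C1qc, Itgam and Serping1 did not overlap between these groups, a separation upward shown by 8.37% of genes tested.

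In Kcnip3 KO-5xFAD the library labelled 2 stood apart for most of the genes. C1qa measured 266, 87.6 and 208 CPM there, against 63.8, 62.5 and 74.8 CPM in Kcnip3 KO. C4b measured 412, 66.6 and 279 CPM against 51.4, 76.0 and 78.6 CPM. C3ar1 measured 13.4, 2.11 and 7.24 CPM against 2.30, 1.69 and 3.45 CPM. For C4b and C3ar1 the library labelled Kcnip3 KO-5xFAD 2 fell within the range of Kcnip3 KO, and for C1qa it lay above that range but far below the other libraries of its label. Without the 2 libraries that went against their labels, 5 of the 9 were called higher, beside 1.29% of genes tested. They were C1qa at 1.82 ± 0.15, C1qb at 1.71 ± 0.13, C1qc at 1.77 ± 0.15, C4b at 2.33 ± 0.20 and C3ar1 at 2.05 ± 0.35, with edgeR adjusted p of 2.53e-05, 1.88e-05, 3.48e-05, 5.26e-05 and 0.00857.

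C3 measured 7.98, 3.33 and 5.89 CPM in Kcnip3 KO-5xFAD and 0.732, 4.11 and 1.61 CPM in Kcnip3 KO, which overlapped (log2 fold change 1.44 ± 0.52, edgeR adjusted p = 0.371). Itgam measured 22.5, 13.1 and 13.8 CPM against 7.95, 10.03 and 8.40 CPM, with every transgenic library above the others (0.91 ± 0.25, edgeR adjusted p = 0.255). For Itgam the library labelled Kcnip3 KO-5xFAD 2 was thus close to another library of its group. Serping1 measured 20.5, 17.8 and 17.8 CPM against 9.10, 13.5 and 15.5 CPM, a non-overlapping but uncalled difference of 0.56 ± 0.31 (edgeR adjusted p = 0.558). C5ar1 measured 3.66, 1.89 and 1.23 CPM against 1.46, 1.21 and 1.96 CPM, so its groups overlapped (0.55 ± 0.50, edgeR adjusted p = 0.738).

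**Figure D2:**
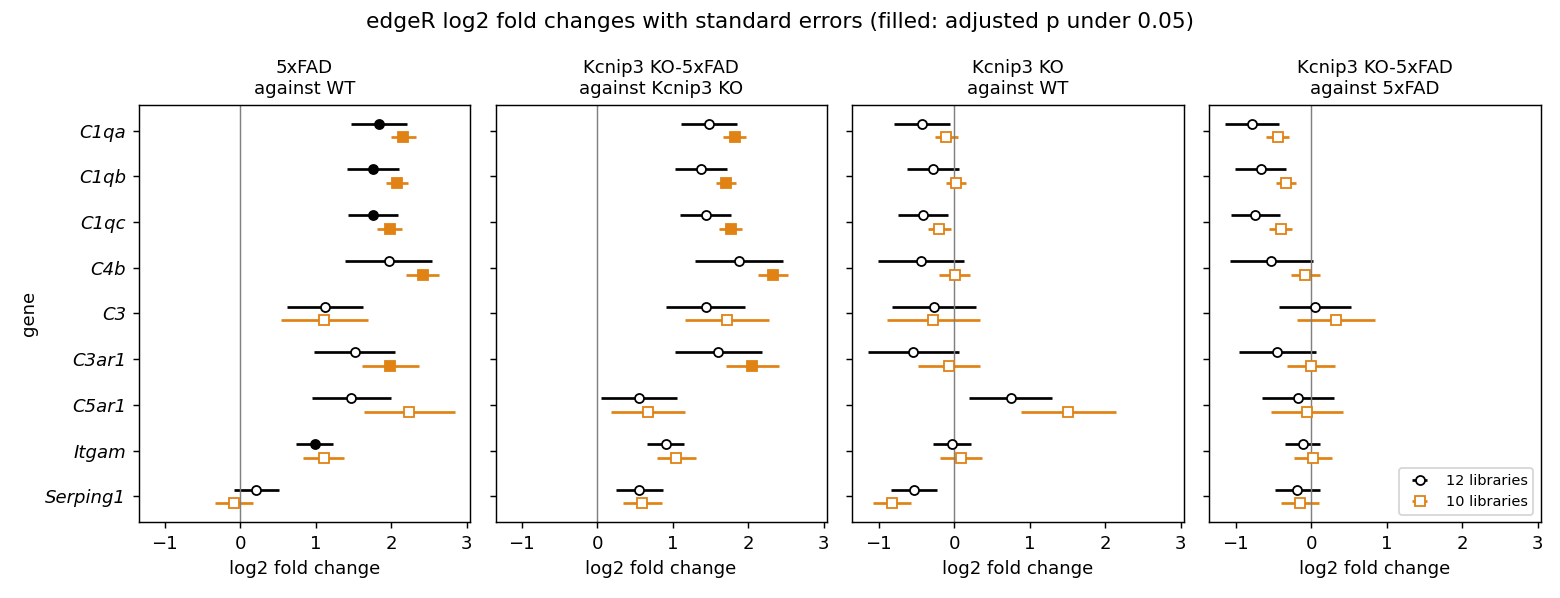
Log2 fold changes from edgeR (x axis, bars are standard errors) of the 9 genes in 4 comparisons, with 12 libraries (black circles) and with the 10 without WT 3 and Kcnip3 KO-5xFAD 2 (orange squares), filled where the adjusted p was under 0.05. Both transgene comparisons lie to the right for the C1q genes, C4b and C3ar1, and no gene is filled in either comparison of Kcnip3 status.

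The third comparison asked what loss of Kcnip3 did in mice without the transgenes. In Kcnip3 KO against WT edgeR called 0 of the 9, beside 0.0503% of all genes tested in either direction. None of the 9 had an unadjusted p under 0.05 in edgeR, beside 718 of all 15905 genes tested, and DESeq2 and limma-voom also called 0. The mean was lower for 8 of the 9, with a median log2 fold change of -0.41. C1qc was the one gene of the 9 whose libraries did not overlap, at 65.1, 75.1 and 70.4 CPM in Kcnip3 KO against 80.6, 80.3 and 119 CPM in WT, where 4.89% of all genes were separated downward. Leaving out the 2 libraries moved C1qa, C1qb and C4b to log2 fold changes of -0.10, 0.03 and 0.01, and the median of the 9 to -0.07. In that fit Serping1 was at -0.83 ± 0.25 and C5ar1 at 1.51 ± 0.63, and neither was called (edgeR adjusted p = 0.956 and 1), beside 0.0435% of genes called in either direction. Serping1 lies on chromosome 2 at 84765387 to 84775444, 42.7 Mb from Kcnip3, and whether this position bears on its level was not tested.

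The fourth comparison asked what loss of Kcnip3 did in mice that carried the transgenes, a group that shares its 5xFAD libraries with the first comparison. EdgeR called 0 of the 9 in Kcnip3 KO-5xFAD against 5xFAD, beside 0.0692% of all genes tested in either direction. DESeq2 and limma-voom also called 0, and the number with an unadjusted p under 0.05 was 1 in edgeR, 2 in DESeq2 and 3 in limma-voom. Of all 15905 genes tested, 1649, 1489 and 1639 had such a p in edgeR, DESeq2 and limma-voom. All 3 C1q genes were lower in each Kcnip3 KO-5xFAD library than in each 5xFAD library, a separation downward shown by 7.29% of genes tested. C1qb measured 289.6, 101 and 236 CPM against 311, 388 and 296 CPM, and C1qc measured 267, 91.1 and 213 CPM against 269, 386 and 296 CPM. For all 3 genes the nearest libraries of the 2 groups differed by less than the spread within either group. The log2 fold changes were -0.78 ± 0.35, -0.67 ± 0.34 and -0.74 ± 0.32 for C1qa, C1qb and C1qc, with edgeR adjusted p of 0.483, 0.519 and 0.477.

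With 10 libraries these differences of C1qa, C1qb and C1qc were -0.44 ± 0.15, -0.33 ± 0.13 and -0.40 ± 0.15, with edgeR adjusted p of 0.53, 0.531 and 0.531, beside 0.0373% of genes called in either direction. C4b moved from -0.53 ± 0.55 to -0.08 ± 0.19 and C3ar1 from -0.45 ± 0.51 to 0.00 ± 0.32 between the 2 fits. C3 was at 0.05 ± 0.47, C5ar1 at -0.17 ± 0.47, Itgam at -0.11 ± 0.24 and Serping1 at -0.18 ± 0.30 with 12 libraries. So the C1q genes kept a lower mean in both fits, and C4b and C3ar1 did so mainly with all 12 libraries. Even there C4b and C3ar1, like the other 4, differed by less than their standard error.

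The difference between the transgene effects with and without Kcnip3, tested as an interaction, was called for 0 of the 9, beside 0% of all genes tested. No member had an unadjusted p under 0.05 for it in edgeR, DESeq2 or limma-voom, beside 836, 760 and 851 of all 15905 genes tested. The estimates were -0.36 ± 0.51, -0.38 ± 0.48 and -0.32 ± 0.46 for C1qa, C1qb and C1qc, and the largest in size was -0.92 ± 0.73 for C5ar1. With 10 libraries again none of the 9 was called, beside 0.00622% of all genes. These standard errors leave room for differences of the size of the estimates, so the values do not show that the transgene effect was alike in the 2 backgrounds.

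The C1q chains kept near-constant proportions. Of the summed TPM of the 3 genes, C1qa made up 34.5% to 40.4%, C1qb 38.2% to 43.2% and C1qc 19.8% to 23.3% over the 12 libraries. In CPM, which are not divided by length, their means were 166.5, 179.5 and 167.7. Their median annotated transcript lengths were 1040, 1088 and 1074.5 bases. The lower C1qc share thus belongs to the deposited TPM and is not seen in the counts. The C1qb share was higher in every Kcnip3 KO library (41.1% to 43.2%) than in every WT library (39.4% to 40.6%), and the C1qa share was lower in every Kcnip3 KO-5xFAD library (37.6% to 38.7%) than in every 5xFAD library (39.2% to 40.4%). These shifts of a few percentage points were not tested, and neither was seen in the other background. The C1qb share overlapped between Kcnip3 KO-5xFAD and 5xFAD, and the C1qa share overlapped between Kcnip3 KO and WT. The longest transcripts of the 3 genes share no 50-base window. The 5 tested genes whose centred log2(CPM + 0.5) profile over the 12 libraries lay closest to the C1q mean were Ctss, Ctsd, Lag3, Laptm5 and Ly86, at root mean square differences of 0.11 to 0.146, where the C1q mean itself had an SD of 0.925. Ctss and Ctsd encode lysosomal proteases. The points share library, depth and genotype, so this likeness is a description.

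Other members had other neighbours by the same measure. Those of C4b were Ly9, Cd14, AU020206, Fcgr2b and Slc11a1 (0.2 to 0.241), and those of C3ar1 were Fcgr2b, Csf3r, Mpeg1, Naip2 and Ctss (0.196 to 0.309). Fcgr2b, the inhibitory receptor for IgG, is in both sets. Itgam was followed most closely by Mlxipl, Slc2a5, Selplg, Cyth4 and Cebpd (0.187 to 0.205). Serping1 was nearest to Bgn, Spag8, Emilin1, Lgals4 and Serpinh1 (0.187 to 0.244), of which Bgn, Emilin1 and Serpinh1 encode matrix proteins or a collagen chaperone. For C3 (nearest Cxcl16, Iqgap3, Tmem106a, Fam167b and Rasa4) and C5ar1 (nearest Slc14a1, Arhgap30, Gm12120, Clcf1 and Cx3cr1) the smallest differences were 0.399 and 0.349, against an SD of 0.815 and 0.654 of the genes themselves.

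Microglial markers moved with the C1q genes. The summed CPM of 13 microglial markers, including Cx3cr1, P2ry12, Tmem119 and Csf1r, was 427 to 600 in WT, 429 to 479 in Kcnip3 KO, 927 to 1100 in 5xFAD and 512 to 1017 in Kcnip3 KO-5xFAD, with all 13 detected in every library. In bulk tissue more cells of a type and more RNA per cell cannot be told apart. As a description without a test, the summed CPM of the 3 C1q genes was set against this marker sum in the same library. It amounted to 54.9%, 53.0% and 63.5% of it in WT and to 92.1%, 105% and 96.2% in 5xFAD. It was 47.8%, 47.7% and 47.6% in Kcnip3 KO, and 80.8%, 54.6% and 80.5% in Kcnip3 KO-5xFAD. The ratio was higher in every 5xFAD library than in every WT library. Every Kcnip3 KO library lay below every WT library, and every Kcnip3 KO-5xFAD library lay below every 5xFAD library. The share of all genes separated in these ways against the marker sum was not counted.

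The order of the groups in this ratio held when each of the 13 markers was left out in turn, in 13 of 13 cases. Against single markers, 5xFAD lay above WT for 13 of 13, Kcnip3 KO-5xFAD below 5xFAD for 10 of 13, and Kcnip3 KO below WT for 5 of 13, a check added after the ratio was seen. C4b amounted to 14.7% to 23.9% of the marker sum in WT, 11.98% to 16.5% in Kcnip3 KO, 31.0% to 44.3% in 5xFAD, and 40.5%, 13% and 34.3% in Kcnip3 KO-5xFAD, so its ratio overlapped between the 2 transgenic groups. Itgam stayed between 1.501% and 2.56% in all 12 libraries, with all 4 groups overlapping.

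**Figure D3:**
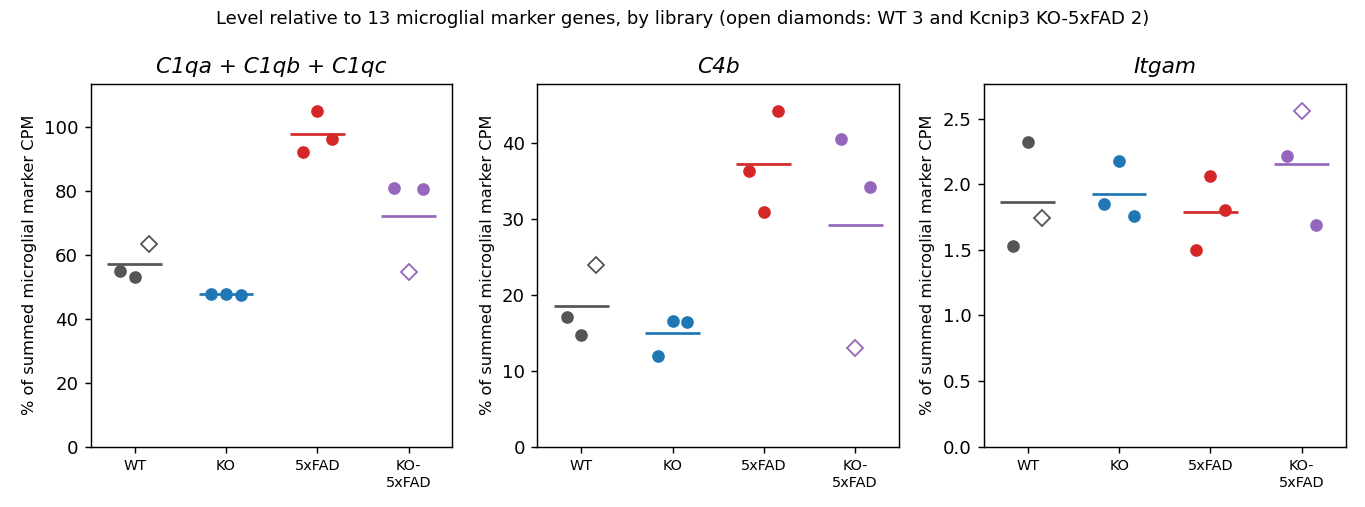
Summed C1q CPM, C4b CPM and Itgam CPM as a percentage of the summed CPM of 13 microglial markers (y axes start at 0, each on its own scale) in the 12 libraries, with group means as lines and open diamonds for WT 3 and Kcnip3 KO-5xFAD 2. The C1q ratio is 47.6% to 47.8% in Kcnip3 KO and 53.0% to 63.5% in WT, and 54.6% to 80.8% in Kcnip3 KO-5xFAD and 92.1% to 105% in 5xFAD, whereas the Itgam groups overlap.

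Markers of other cells were read beside these results, and their part in them was not tested. The summed CPM of 6 reactive astrocyte markers was 481 to 1041 in WT, 433 to 1025 in Kcnip3 KO, 2478 to 3024 in 5xFAD and 717 to 3297 in Kcnip3 KO-5xFAD. Like C4b, it was higher in every 5xFAD library than in every WT library. Gfap made up most of this sum, with a mean of 1311 CPM over all libraries against 97.0 CPM for Vim, the next. In 5xFAD against WT, 5 of the 6 markers had a higher mean and 1 a lower one, and 0 were called. Border macrophage markers summed to 3.97 to 22.9 CPM, and those of monocytes and neutrophils to 1.46 to 6.06 CPM with 1 to 3 of their 7 genes at 0 in each library. Choroid plexus markers varied from 103 CPM in the library labelled WT 3 to 9017 CPM in 5xFAD 3, without following genotype. Meningeal fibroblast markers, among them Col1a1 and Dcn, summed to 137 to 217 CPM in WT, 112 to 133 CPM in Kcnip3 KO, 89.9 to 170 CPM in 5xFAD and 125 to 197 CPM in Kcnip3 KO-5xFAD. Mean Serping1 was 18.4 ± 7.98, 12.7 ± 3.30, 21.2 ± 5.67 and 18.7 ± 1.57 CPM in these groups (SD, n = 3). Within WT and within 5xFAD, Serping1 and the meningeal sum ranked the libraries alike. Within Kcnip3 KO and within Kcnip3 KO-5xFAD they did not, nor did the group means share an order. Whether the meningeal content bears on Serping1 was not tested.

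Of 51 other complement genes listed by role, 30 passed the filter and 2 were called higher in 5xFAD than in WT, none lower, beside the 1.91% and 1.62% of all genes tested. Their median log2 fold change was 0.12. Itgb2 encodes CD18, the beta chain that pairs with CD11b in complement receptor 3. It measured 8.61, 6.91 and 11.8 CPM in the WT libraries and 26.5, 28.5 and 23.5 CPM in 5xFAD (log2 fold change 1.52 ± 0.35, edgeR adjusted p = 0.0411). Clu encodes clusterin, an extracellular chaperone that also restrains assembly of the terminal complex. It measured 1117, 1177 and 1140 CPM in the WT libraries and 1778, 2298 and 2010 CPM in 5xFAD (0.83 ± 0.11, edgeR adjusted p = 0.0104). Neither gene overlapped between the groups, and the WT libraries of Clu lay close together, WT 3 included. In Kcnip3 KO-5xFAD Clu measured 1661, 1423 and 1472 CPM, below every 5xFAD library and above the 1063 to 1174 CPM of Kcnip3 KO, and neither difference was called (edgeR adjusted p = 0.411 and 0.251).

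Itgax encodes CD11c, the alpha chain of complement receptor 4 and a marker of plaque-associated microglia. It measured 0.319, 0.319 and 7.42 CPM in the WT libraries and 24.1, 27.9 and 19.9 CPM in 5xFAD. In Kcnip3 KO it was at 0.209, 0.362 and 0 CPM and in Kcnip3 KO-5xFAD at 19.0, 0.778 and 16.9 CPM, so WT 3 and Kcnip3 KO-5xFAD 2 stood apart here as they did for Thy1. With 10 libraries Itgax and Itgb2 were both called in each transgene comparison, Itgax with edgeR adjusted p of 8.33e-06 and 4.61e-06 and Itgb2 at log2 fold changes of 1.75 and 1.31. Itgax had at most 3 counts in the libraries of the lower groups in that fit, so its fold depends on the prior count and is not given.

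The remaining listed genes were not called in any comparison with 12 libraries, among them Cr1l, the rodent membrane regulator Crry (log2 fold change 0.27 ± 0.15 in 5xFAD). The 21 that did not pass the filter include the mannose-binding lectins and most components of the terminal pathway. Cd59a, which encodes an inhibitor of the membrane attack complex, was chosen after its values were seen. It measured 14.9, 9.78 and 5.95 CPM in the WT libraries and 14.6, 6.67 and 17.5 CPM in 5xFAD, against 3.45, 5.07 and 3.68 CPM in Kcnip3 KO and 3.55, 2.89 and 3.93 CPM in Kcnip3 KO-5xFAD. Every library labelled Kcnip3 KO or Kcnip3 KO-5xFAD lay below every library with the intact gene. The nearest values were 5.07 CPM in Kcnip3 KO and 5.95 CPM in the library labelled WT 3. Separation downward was shown by 4.89% of all genes tested in Kcnip3 KO against WT and by 7.29% in Kcnip3 KO-5xFAD against 5xFAD. The share separated over all 12 libraries was not counted. Neither difference was called, at -1.33 ± 0.36 in Kcnip3 KO against WT (edgeR adjusted p = 0.775) and -1.92 ± 0.38 in Kcnip3 KO-5xFAD against 5xFAD (edgeR adjusted p = 0.168). Cd59a lies 23.3 Mb from Kcnip3 on chromosome 2, and whether this position bears on its level was not tested.

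**Figure D4:**
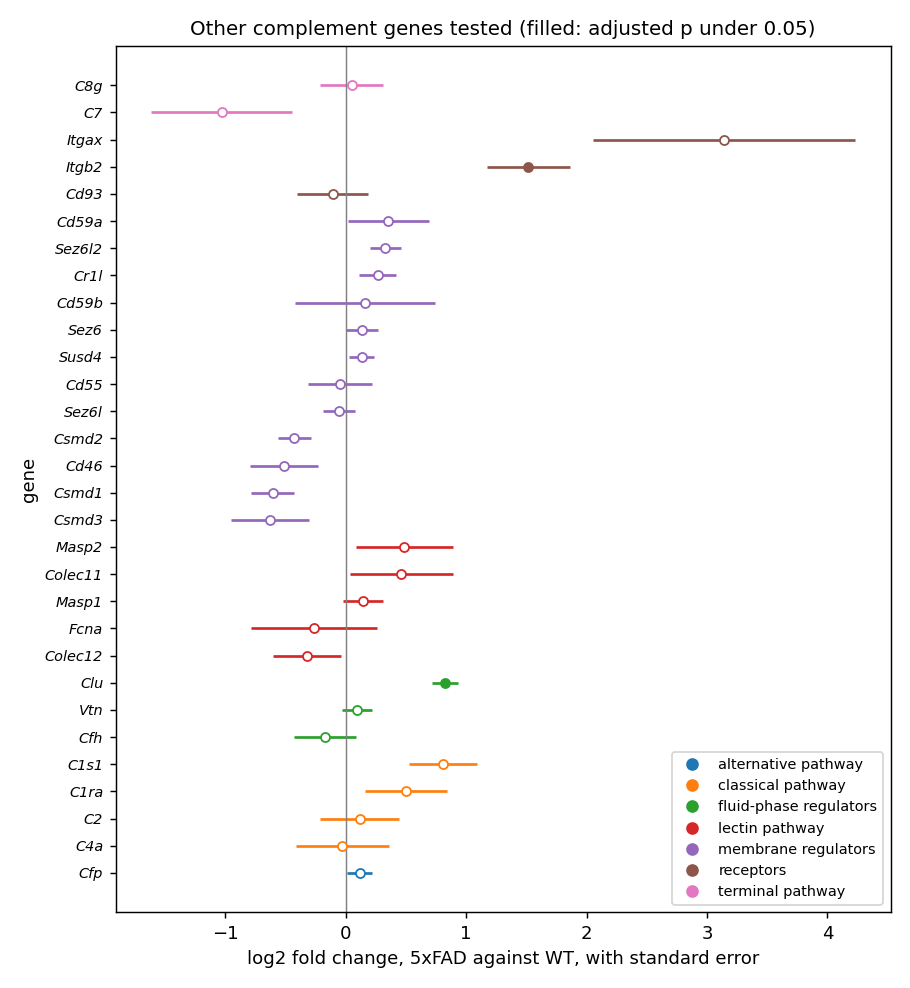
Log2 fold changes with standard errors (x axis) in 5xFAD against WT with 12 libraries for the 30 other complement genes tested, coloured by role and filled where the edgeR adjusted p was under 0.05. Itgb2 and Clu are the 2 filled genes, Itgax lies farthest to the right with the widest bar, and most regulators lie near 0.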

How the data were processed

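Per the labels' protocols, Trizol was used for total RNA and the TruSeq mRNA kit for library preparation. Per the submitters' processing notes, the authors worked with HISAT2 2.1.0 on mm10, featureCounts, FastQC 0.11.9 and, in R 4.2.1, edgeR 3.38.4. For strand setting and annotation the sources used here give nothing. The authors' deposited table of raw read counts holds 55385 Ensembl genes, of which 55144 had a symbol in GENCODE M21 (GRCm38, the assembly of mm10). The second deposited table holds log2 TPM, raised back here to TPM, and served for levels between genes and for an alternative fit.

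EdgeR 4.0.16 (R 4.3.3) was run on all 12 libraries together with TMM factors, genes kept by filterByExpr, a coefficient for each genotype and robust quasi-likelihood tests. Adjusted p-values are Benjamini-Hochberg values over all 15905 genes tested (16076 with 10 libraries), with a threshold of 0.05. It was first run on simulated data with known changes. The simulation gave every gene the same spread and held no library that went against its label. It therefore does not show how the calls fare in libraries like these. DESeq2 1.42.0 and limma 3.58.1 (voom, and on log2 TPM) were among the alternatives, as were other scalings and filters, fits of the compared groups alone, the replicate block and leaving out each library. Length and GC correction, the fits without doubted libraries and the single-marker ratios were added after the data were seen.

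The 9 genes, the lists and the comparisons were chosen with earlier results of these data known. The text names all 9, other complement genes called in any comparison plus C4a, Itgb2, Itgax, Cr1l and Clu, and Kcnip3, Thy1 and Trem2 as checks of the labels, markers set beside a result, and for each profile the 5 nearest genes by root mean square difference of centred log2(CPM + 0.5) among 15422 genes with mean CPM of at least 1. Cd59a falls outside this rule and was chosen after its values were seen. App, the mouse gene of amyloid precursor protein, was also listed as a check of the labels, and its values are not given here. Marker sums use lists of genes per cell type, and marker and motif lists were chosen from general knowledge. Intervals from counting do not enter the p-values. A count of 3 corresponded to 0.272 to 0.425 CPM, and such limits cover counting error only.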

Additional observations from a re-analysis of the deposited data

How the results depend on the processing

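The number of the 9 genes called higher in 5xFAD than in WT was 4 with all 12 libraries (1.91% of all genes tested), 8 with no filter (3.57%), 1 with limma on the deposited log2 TPM (0.496%) and 0 with the length and GC correction (0.635%). It ran from 0 to 4 when single libraries were left out, where 1 to 939 of all genes were called higher. DESeq2 called 6 (3.94%). In Kcnip3 KO-5xFAD against Kcnip3 KO the number called higher was 0, but 7 with no filter (1.32%) and 3 with DESeq2 (0.685%). It was 5 with both WT 3 and Kcnip3 KO-5xFAD 2 out (1.29%), also with 5xFAD 2 left out (211 of 16076 genes). It ran from 0 to 5 with single libraries left out, the 5 without Kcnip3 KO-5xFAD 2 (190 of 16182 genes). With no filter, 2 genes were called lower in Kcnip3 KO against WT (0.381% of all genes) and 4 in Kcnip3 KO-5xFAD against 5xFAD (0.475%), where the other settings gave 0. The cause was not tested in any of these.

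Replicate numbers are not stated to pair libraries. In deviations from the group means, 6 of 18 same-number pairs correlated above 0.1 (r from -0.33 to 0.253). Of the 12 libraries, 3 lay closest to one sharing their number. With 3 libraries per group such correlations cannot exclude pairing. With the replicate number as a block, edgeR called 632 genes higher and 602 lower in 5xFAD against WT, beside 304 and 258 without it. C3ar1 then passed the threshold in that comparison (log2 fold change 1.64, edgeR adjusted p = 0.0489) and its interaction estimate became -0.13. No other of the 9 genes changed its call.

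Other sign changes were of uncalled estimates. With both WT 3 and Kcnip3 KO-5xFAD 2 out they were Serping1 in 5xFAD against WT (-0.082), C1qb (0.027), C4b (0.0081) and Itgam (0.091) in Kcnip3 KO against WT, and Itgam in Kcnip3 KO-5xFAD against 5xFAD (0.031). With 5xFAD 2 also left out they were C1qb (0.024), C4b (0.0040) and Itgam (0.087) in Kcnip3 KO against WT, C5ar1 (0.059) and Itgam (0.23) in Kcnip3 KO-5xFAD against 5xFAD, and Itgam in the interaction (0.15). Limma-voom gave -0.024 for C3 in Kcnip3 KO-5xFAD against 5xFAD and -0.39 for the C3ar1 interaction, which was -0.29 with log2 TPM. The length and GC correction gave 0.036 for the C4b and -0.17 for the C3ar1 interaction.

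With single libraries left out, Serping1 in 5xFAD against WT ran from -0.082 to 0.55. In Kcnip3 KO against WT the ranges were -0.44 to 0.027 for C1qb, -0.67 to 0.00825 for C4b, -1.12 to 0.16 for C3 and -0.21 to 0.091 for Itgam. In Kcnip3 KO-5xFAD against 5xFAD they were -0.27 to 0.34 for C3, -0.70 to 0.11 for C5ar1 and -0.41 to 0.0897 for Itgam. In the interaction they were -0.65 to 0.0064 for C1qc, -0.63 to 0.37 for C4b, -0.11 to 1.17 for C3, -0.62 to 0.54 for C3ar1 and -0.37 to 0.13 for Itgam. C3 and C5ar1 had the fewest counts of these genes, and whether depth bears on the ranges was not tested.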
